A study of Bos taurus with 30 samples.

Results

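The 7 genes IGFBP1 to IGFBP7 encode the insulin-like growth factor (IGF) binding proteins, and all 7 were found among the 27607 genes counted in 30 RNA sequencing libraries of bovine endometrial cells. They were chosen by gene name, matched to the Ensembl identifiers in the deposited tables. The family itself was chosen from results of these data, since IGFBP3, IGFBP5 and IGFBP6 stand among the transcripts that the study listed between insulin concentrations. The levels between insulin concentrations are therefore a description with no p-value, and counts of calls there support nothing, whereas the comparisons of glucose concentrations and of cell types were tested.

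Epithelial and stromal cells were isolated from uteri of nonpregnant cows early in the luteal phase and grown in a microfluidic device, with epithelial cells in the upper and stromal cells in the lower chamber of a porous membrane. Medium flowed through the device for 72 hours at 1 µL per minute. In the glucose experiment it held 5 or 50 mM glucose (12 libraries). In the insulin experiment it held 5 mM glucose in every group, with a vehicle of acetic acid in phosphate-buffered saline, 1 ng/mL insulin or 10 ng/mL insulin (18 libraries). Each of the 10 groups held 3 replicates, described by the submitters as biological; the number of cows behind them is not given in the sources used here. The cells were enriched primary cultures rather than sorted cells, and fewer cells of a type and less RNA per cell cannot be told apart in such bulk samples. A glucose library held 13493503 to 16647701 counted reads and an insulin library 8826470 to 13214728. Levels are given in CPM, the count divided by the counted reads of the library and multiplied by 1000000. Since transcript lengths were not used here, the level of one gene is not compared with that of another.

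IGF binding proteins are secreted and hold IGF1 and IGF2 in the extracellular fluid, where they can keep the ligands from their receptor IGF1R or carry and release them. IGFBP3 and IGFBP5 also form a larger complex with IGF and the acid labile subunit (IGFALS), and proteases such as PAPPA release IGF by cutting IGFBP4 and IGFBP5. IGFBP6 prefers IGF2, IGFBP7 binds IGF only weakly, and IGFBP1 is known in the ruminant uterus as a progesterone-responsive product of the luminal epithelium and a marker of conceptus elongation. In the RefSeq annotation of the cow, IGFBP3 and IGFBP1 are neighbours, as are IGFBP2 and IGFBP5. IGFBP4 lies between TOP2A and TNS4, IGFBP6 between SOAT2 and SPRYD3, and IGFBP7 between POLR2B and ADGRL3.

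The libraries carried their labelled cell type, with exceptions that touch the results. All 23 epithelial markers had reads in every epithelial library, and their summed level was 9450 to 17528 CPM there against 4.91 to 6196 CPM in stromal libraries. All 21 stromal markers had reads in every stromal library, with sums of 24024 to 91442 CPM against 1222 to 7475 CPM in epithelial libraries. Among stromal libraries, replicate 3 at 50 mM glucose held the highest epithelial and the lowest stromal sum of its cell type, and its epithelial markers had a median of 62.4% of the level in epithelial libraries. The epithelial library of replicate 2 at 5 mM held the 17528 CPM. Endothelial markers (5 of 6 in the tables) summed to 0.780 to 4.62 CPM and immune markers (3 of 6 in the tables, without PTPRC, CD3E and TYROBP) to 0.445 to 7.13 CPM over all libraries. Smooth muscle markers (5 of 5) ranged from 500.3 to 4019 CPM in the stromal libraries and from 7.81 to 339.99 CPM in the epithelial ones.

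IGFBP2 to IGFBP7 were detected in all 30 libraries, with at least 55 reads each. IGFBP1 had 0 reads in 9 of the 30 libraries and at most 50 reads in any, where 3 reads is the limit that a count of 0 allows, for counting error only. Its highest levels were 3.05 CPM and 1.86 CPM in the stromal libraries of replicate 3 at 5 and 50 mM glucose. The stromal libraries of replicate 1 there held 11 and 10 reads, whereas no stromal library of the insulin experiment held more than 2. In the 15 epithelial libraries this product of the uterine epithelium stayed between 0 and 0.557 CPM, with at most 6 reads.

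**Figure D1:**
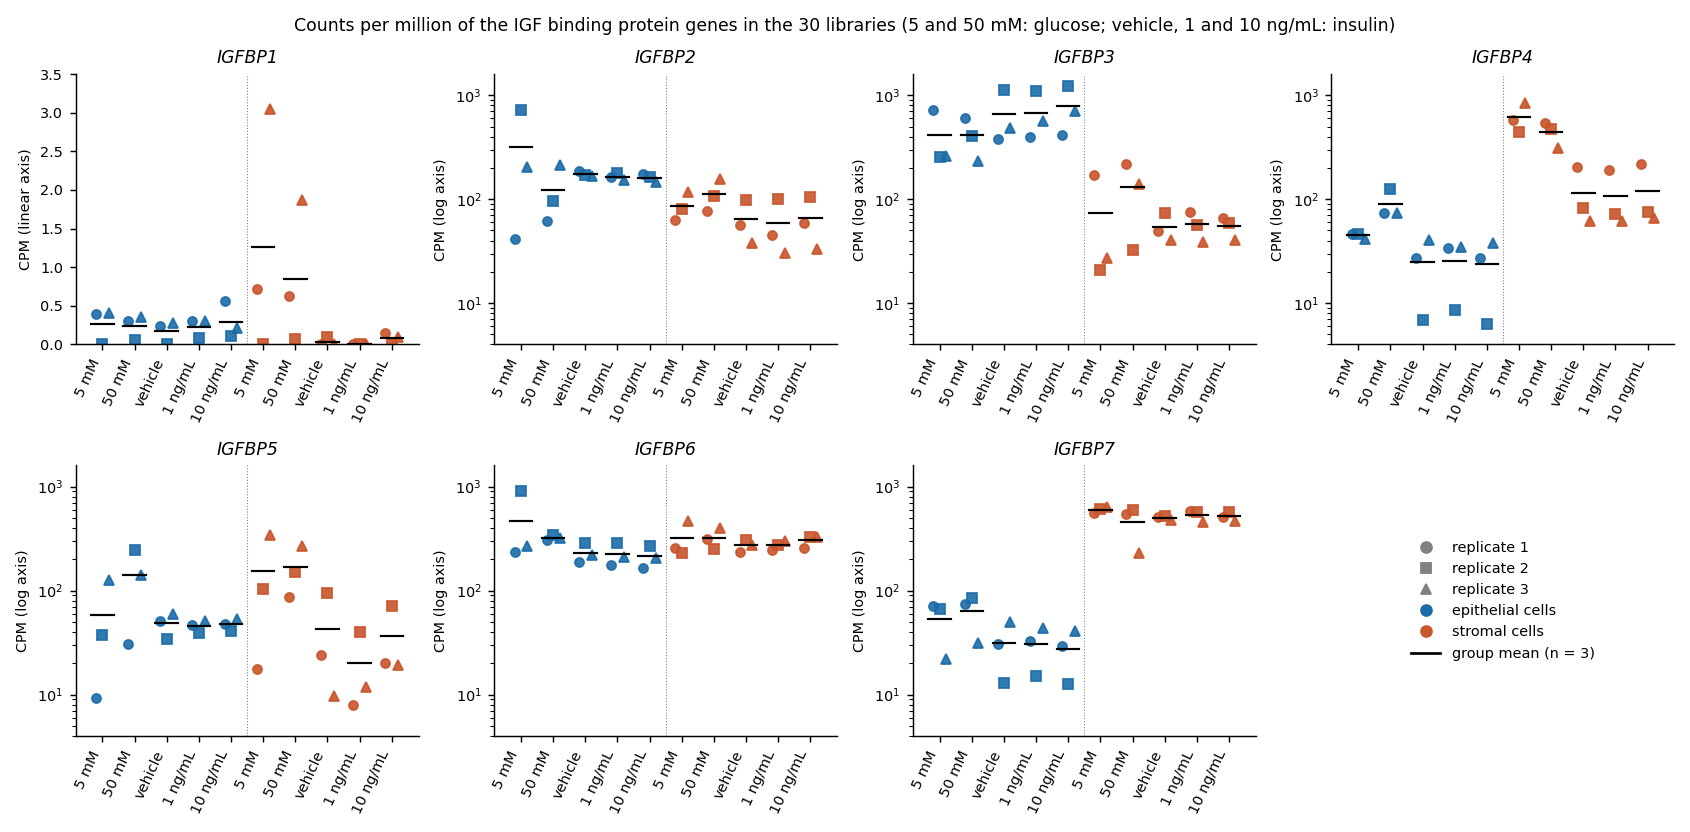
Level of each IGF binding protein gene in CPM (vertical axis, log scale except for IGFBP1) in the 10 groups (horizontal axis), with 1 point for each library, its shape for the replicate number and a line at the group mean. IGFBP7 and IGFBP4 lie higher in stromal cells (orange) and IGFBP3 in epithelial cells (blue), and IGFBP1 lies near 0 in nearly all libraries.

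The first question was how the members are shared between the cell types, and it was asked at each of the 5 conditions on the 6 libraries of that condition. Calls rest on edgeR's quasi-likelihood F test with the replicate number as a block and need both an adjusted p below 0.05 and an absolute log2 fold change above 0.1. Of the 6 members that passed the filter on low counts in each comparison, 4 were called at 5 mM glucose, 2 at 50 mM, 4 with the insulin vehicle, 4 at 1 ng/mL and 5 at 10 ng/mL insulin. Of all protein-coding genes tested, 10.8% were called higher in epithelial and 10.7% in stromal cells at 5 mM glucose, and 6.57% and 11.0% at 50 mM. For the insulin experiment these shares were 28.2% and 27.8% with vehicle, 29.9% and 29.5% at 1 ng/mL, and 27.3% and 27.6% at 10 ng/mL. IGFBP1 passed the filter in none of these 5 comparisons.

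IGFBP7 (ENSBTAG00000019368) and IGFBP4 (ENSBTAG00000008611) were the stromal members, called at all 5 conditions. IGFBP7 had 563, 604 and 637 CPM in the stromal libraries of replicates 1, 2 and 3 at 5 mM glucose and 71.2, 66.0 and 22.1 CPM in the epithelial ones. At 50 mM it had 548, 600.4 and 232 CPM in stromal and 74.2, 84.8 and 31.1 CPM in epithelial libraries. The lowest stromal value, 232 CPM, is that of the library with the high epithelial markers, and it still lay above every epithelial value. The 9 stromal libraries of the insulin experiment held 456 to 577 CPM (median 516 CPM) and the 9 epithelial libraries 12.7 to 49.5 CPM (median 30.9 CPM). The cell types thus did not overlap at any condition, and IGFBP7 was 14.6-fold lower in epithelial cells at 5 mM glucose (log2 fold change -3.87, SE 0.533, adjusted p = 0.00749) and 8.11-fold lower at 50 mM (-3.02, SE 0.175, adjusted p = 0.00159). It was 19.2-fold lower with vehicle (-4.26, SE 0.447), 20.2-fold lower at 1 ng/mL (-4.34, SE 0.369) and 22.0-fold lower at 10 ng/mL insulin (-4.46, SE 0.453), with adjusted p-values of 0.00238, 0.000427 and 0.00245. Without replicate 1 the adjusted p at 50 mM was 0.05004, just short of the threshold, at a log2 fold change of -2.95. In that fit 0 of 13351 protein-coding genes were called. Without replicate 3 the log2 fold change at 5 mM was -3.28.

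IGFBP4 had 572, 442 and 839 CPM in stromal against 46.2, 46.5 and 41.7 CPM in epithelial libraries at 5 mM glucose, and 541, 475 and 308 CPM against 73.9, 125 and 73.5 CPM at 50 mM. In the insulin experiment its stromal level was lower, at 61.0 to 217 CPM (median 75.1 CPM), with the highest 3 values all in replicate 1. The epithelial libraries there held 6.23 to 40.8 CPM (median 27.2 CPM), and the ranges of the cell types stayed apart at every dose. In replicate 3 the difference was least, with 61.0 CPM in stromal and 40.8 CPM in epithelial cells of the vehicle group. The epithelial level was 15.5-fold lower at 5 mM (-3.95, SE 0.422, adjusted p = 0.00543) and 5.41-fold lower at 50 mM (-2.44, SE 0.284, adjusted p = 0.00630). It was 5.34-fold lower with vehicle (-2.42, SE 0.616, adjusted p = 0.0267), 4.67-fold at 1 ng/mL (-2.22, SE 0.416, adjusted p = 0.00639) and 5.80-fold at 10 ng/mL insulin (-2.54, SE 0.574, adjusted p = 0.0194). Without replicate 1 IGFBP4 was no longer called at 50 mM (adjusted p = 0.0551), with vehicle (0.144), at 1 ng/mL (0.0587) or at 10 ng/mL (0.0837), nor without replicate 2 at 10 ng/mL (0.0505). At 50 mM without replicate 1, 0 of 13351 protein-coding genes were called. Without replicate 3 the log2 fold changes of IGFBP4 in the insulin experiment were -3.23, -2.84 and -3.33, and without replicate 2 that with vehicle was -1.82.

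IGFBP3 (ENSBTAG00000003994) and IGFBP2 (ENSBTAG00000005596) were the epithelial members. IGFBP3, the main carrier of IGF in the circulation, had 727, 253 and 261 CPM in epithelial against 173, 20.8 and 27.0 CPM in stromal libraries at 5 mM glucose. At 50 mM it had 599, 405 and 232 CPM against 218, 32.2 and 139.7 CPM. In the insulin experiment the epithelial libraries held 382 to 1222 CPM (median 565 CPM), with all values of replicate 2 at 1087 CPM or more, and the stromal libraries held 38.9 to 76.0 CPM (median 56.8 CPM). The ranges were apart at all 5 conditions. IGFBP3 was 6.82-fold higher in epithelial cells at 5 mM glucose (2.77, SE 0.454, adjusted p = 0.0113), but 3.35-fold at 50 mM did not pass (1.74, SE 0.604, adjusted p = 0.103). Of the 23 epithelial markers only 1 was called at 50 mM (median log2 fold change 2.24), against 21 at 5 mM (7.45). All 21 stromal markers were called at both. The part of epithelial RNA in the stromal libraries at 50 mM in the missed call was not tested. With vehicle, 1 and 10 ng/mL insulin it was 10.6-fold (3.41, SE 0.208, adjusted p = 0.000978), 10.5-fold (3.39, SE 0.394, adjusted p = 0.00119) and 12.3-fold higher (3.63, SE 0.364, adjusted p = 0.00241). Without the replicate block the call at 5 mM was lost (adjusted p = 0.117). DESeq2 (adjusted p = 0.00334) and 1 fit of all 12 libraries (0.0193) called the difference at 50 mM. The fit of all 12 leaves the spread between replicates within a cell type out of its error, so nothing is read from its call. The difference at 50 mM was 0.92 without replicate 2 and 2.36 without replicate 3, and passed in neither.

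IGFBP2 separated the cell types in the insulin experiment, where the 9 epithelial libraries lay between 148 and 187 CPM and the 9 stromal libraries between 30.4 and 106 CPM. It was 2.81-fold higher in epithelial cells with vehicle (1.49, SE 0.279, adjusted p = 0.0107), 2.92-fold at 1 ng/mL (1.54, SE 0.278, adjusted p = 0.00554) and 2.52-fold at 10 ng/mL insulin (1.34, SE 0.311, adjusted p = 0.0211). The calls with vehicle and at 10 ng/mL were lost without replicate 1 (adjusted p = 0.0739 and 0.0846), and the latter also without replicate 3 (0.0844). In the glucose experiment the cell types overlapped. The epithelial libraries held 41.0, 717 and 203 CPM at 5 mM and 61.5, 96.4 and 212 CPM at 50 mM, the stromal libraries 62.9, 79.8 and 117 CPM and 77.0, 107 and 155 CPM. The log2 fold changes of 0.85 (SE 0.809, adjusted p = 0.526) and -0.16 (SE 0.227, adjusted p = 0.665) did not pass. At 50 mM only 1 of the 23 epithelial markers was called either. At 5 mM the direction rested on the 717 CPM of the epithelial library of replicate 2, with -0.15 without that replicate and 1.79 without replicate 1 (adjusted p = 0.0295).

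IGFBP5 (ENSBTAG00000054218), which binds to the extracellular matrix, had log2 fold changes below 0 in the glucose experiment and above 0 in the insulin experiment. At 5 mM glucose it had 17.8, 104 and 343 CPM in stromal and 9.18, 37.0 and 127 CPM in epithelial libraries, so that replicates of one cell type differed by more than the cell types, but the epithelial library was lower in 3 of 3 pairs. The paired difference was 2.86-fold (-1.52, SE 0.311, adjusted p = 0.0207), and it was not called without the replicate block (adjusted p = 0.342), in 1 fit of all 12 libraries (0.0806) or without replicate 3 (0.202). At 50 mM the stromal libraries held 86.5, 151 and 268 CPM and the epithelial libraries 30.6, 247 and 142 CPM, and the difference did not pass (-0.73, SE 0.473, adjusted p = 0.325) except without replicate 2 (-1.38, adjusted p = 0.0130). In the insulin experiment the epithelial libraries held 34.5 to 59.6 CPM of IGFBP5 and the stromal libraries 7.87 to 94.2 CPM. There the log2 fold changes were 0.68 (SE 0.837, adjusted p = 0.524) with vehicle, 1.39 (SE 0.514, adjusted p = 0.0633) at 1 ng/mL and 0.54 (SE 0.513, adjusted p = 0.414) at 10 ng/mL insulin. The stromal libraries of replicate 2 were the high ones, and without that replicate in both cell types the values of 1.76, 2.20 and 1.27 were all called (adjusted p = 0.0143, 2.41e-05 and 0.00835). The fit of all 18 insulin libraries called these values as well (0.51, 1.42 and 0.56). Its error leaves out the spread between replicates within a cell type, so nothing is read from these calls. DESeq2 called the value at 1 ng/mL (adjusted p = 0.00936), whereas without replicate 3 the value with vehicle was -0.19. The difference between the experiments was not tested.

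IGFBP6 (ENSBTAG00000021467) did not separate the cell types in the glucose experiment. It had 235, 908 and 271 CPM at 5 mM and 306, 341 and 322 CPM at 50 mM in epithelial libraries, and 257, 228 and 468 CPM and 315, 249 and 403 CPM in stromal ones. The 908 CPM was again the epithelial library of replicate 2 at 5 mM. The log2 fold changes were 0.10 (approximate 95% interval -1.17 to 1.36, adjusted p = 0.935) and -0.12 (-0.55 to 0.30, adjusted p = 0.724). The interval at 5 mM is wide, and the missed threshold there does not show equal levels. In the insulin experiment the epithelial libraries held 165 to 289 CPM and the stromal libraries 233 to 330.2 CPM. The log2 fold change of IGFBP6 was -0.32 with vehicle (SE 0.119, adjusted p = 0.0734) and -0.42 at 1 ng/mL (SE 0.162, adjusted p = 0.0704), and it was called at 10 ng/mL insulin, where the epithelial level was 1.56-fold lower (-0.65, SE 0.134, adjusted p = 0.0149). The fit of all 18 libraries called it at every dose, but leaves the spread between replicates within a cell type out of its error. The call at 10 ng/mL was lost without replicate 1 (adjusted p = 0.0526) and without replicate 3 (0.0834).

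**Figure D2:**
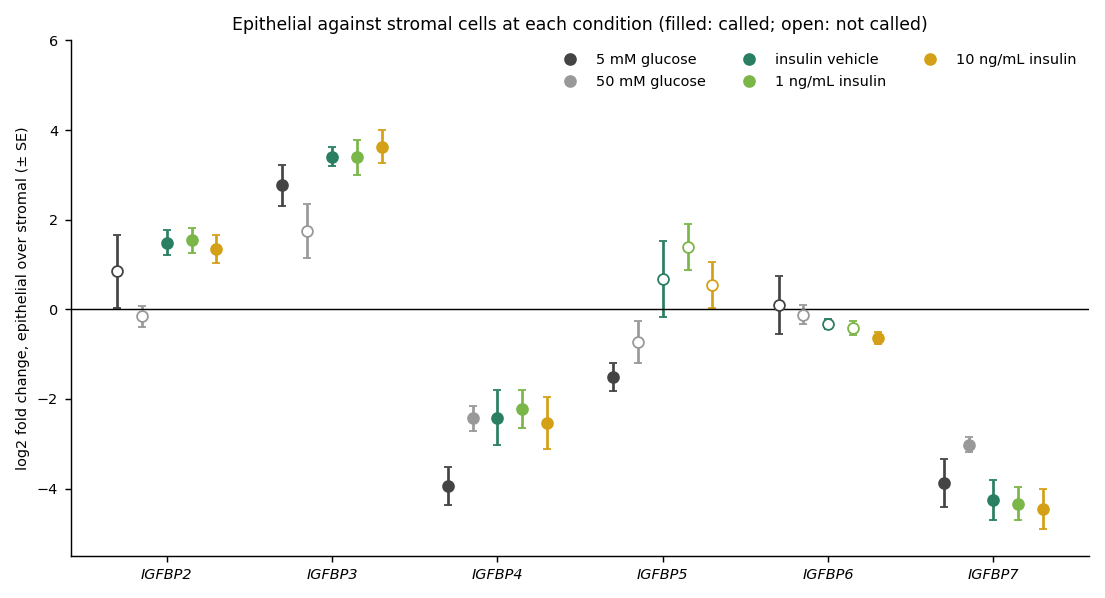
Log2 fold change between epithelial and stromal cells (vertical axis, positive when higher in epithelial cells, with standard errors) of IGFBP2 to IGFBP7 at the 5 conditions, with filled points for called differences. IGFBP4 and IGFBP7 lie below 0 and are filled at all 5 conditions, and IGFBP3 lies above 0 at all 5 with an open point at 50 mM glucose.

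The level of each member in the cell type where it was low was set beside the markers of the other cell type in the same library. The member is a percent of the other cell type's library with the same replicate number. Each marker is a percent of its median over all libraries of its own cell type in that experiment, so the bases differ. In the epithelial libraries IGFBP7 was at 2.21% to 14.1% of the level in the stromal library of the same replicate, and the stromal markers had medians of 1.41% to 13.7%. For replicates 1, 2 and 3 of the vehicle group these were 6.11%, 2.50% and 10.3% for IGFBP7 beside 4.36%, 1.41% and 10.0% for the markers. At 5 mM glucose replicate 2 had 10.9% for IGFBP7 beside 2.33%, and at 50 mM replicate 3 had 13.4% beside 7.59%. The 13.4% was taken against the stromal library with high epithelial markers, at 232 CPM of IGFBP7. The median of the 6 stromal glucose libraries was 582 CPM. On these bases IGFBP7 was above the markers' median in 10 of the 15 epithelial libraries, a count that depends on them. IGFBP4, at 4.97% to 66.9%, was above it in 12 of 15, and in replicate 3 of the insulin groups it was at 55.9% to 66.9% beside 10.0% to 10.3%. The part of stromal RNA in these epithelial levels was not tested.

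For the stromal libraries IGFBP3 and IGFBP2 were set beside the epithelial markers on the same bases. In replicate 2 at 5 mM glucose IGFBP3 was at 8.24% and the markers' median at 0.0191%, but the 23 markers were unequal and summed to 329 CPM. In replicate 2 at 10 ng/mL insulin the markers' median was 0 and their sum 4.91 CPM, beside 4.85% for IGFBP3 and 64.9% for IGFBP2. IGFBP3 was above the markers' median in 14 of 15 stromal libraries. The exception was replicate 3 at 50 mM glucose, with 60.1% for IGFBP3 beside 62.4% for the markers. IGFBP2 was above it in 15 of 15, at 11.1% to 153% of the epithelial level. The part of epithelial RNA in these stromal levels was not tested.

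**Figure D3:**
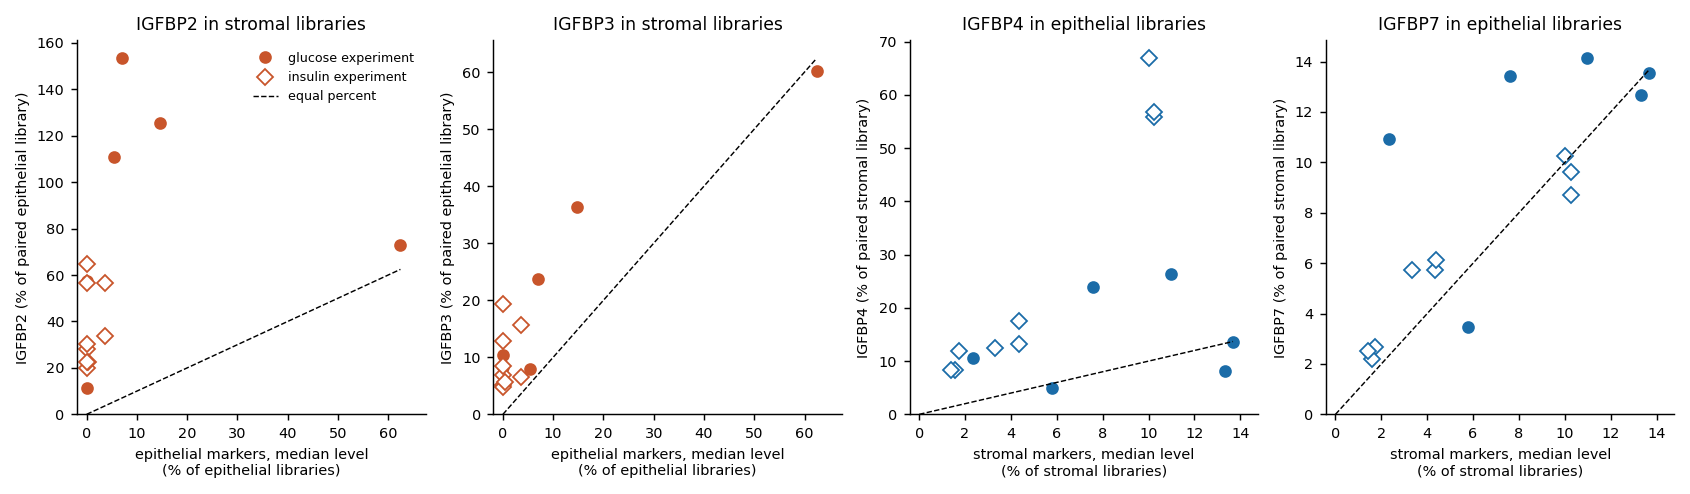
Level of IGFBP2 and IGFBP3 in stromal libraries and of IGFBP4 and IGFBP7 in epithelial libraries, as a percent of the paired library of the other cell type (vertical axis), against the median percent of that cell type's markers in the same library (horizontal axis), with 15 libraries in each panel and a dashed line at equal percent. Each marker is a percent of its median over all libraries of its own cell type in that experiment, a different base. IGFBP7, at 2.21% to 14.1%, lies above the line in 10 libraries, and IGFBP2 lies above it in all 15.

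The second question was the response to high glucose. None of the members was called in either cell type, nor was any protein-coding gene (0% of 13055 tested in epithelial and 0% of 13035 in stromal cells, with 201 and 646 genes at an unadjusted p under 0.05 in edgeR's quasi-likelihood test). DESeq2 called 0 protein-coding genes in epithelial cells and 190 in stromal cells, and no member among them. The values of the members are therefore given with their pairs.

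In epithelial cells IGFBP4 was the member whose groups did not overlap. Its 3 libraries at 5 mM held 46.2, 46.5 and 41.7 CPM and those at 50 mM held 73.9, 125 and 73.5 CPM, a 1.97-fold higher level (0.98, SE 0.240, adjusted p = 0.804) with all 3 pairs higher. Without replicate 2, when 218 protein-coding genes were called, it passed the test (0.78, adjusted p = 0.000630). The glucose concentration took 77.8% of the variance of IGFBP4 over these 6 libraries and the replicate number 13.5%, where the medians over 12640 protein-coding genes were 11.2% and 59.3%. The summed stromal markers moved with it: they were 5578, 3142 and 1979 CPM at 5 mM and 7475, 6337 and 2856 CPM at 50 mM in replicates 1, 2 and 3. The median log2 fold change of the 21 stromal markers there was 0.85, with 0 of them called, and that of the 4 smooth muscle markers tested was 1.58. Their part in the level of IGFBP4 was not tested.

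IGFBP5 was also higher at 50 mM in all 3 epithelial pairs (1.56, SE 0.514, adjusted p = 0.804), from 9.18 to 30.6 CPM in replicate 1, from 37.0 to 247 CPM in replicate 2 and from 127 to 142 CPM in replicate 3. The pairs differed widely, and leaving out replicate 2 gave 0.80 and leaving out replicate 3 gave 2.24. IGFBP7 was higher in 3 of 3 pairs as well, by 0.31 (SE 0.219, adjusted p = 0.804). IGFBP2, IGFBP3 and IGFBP6 had values of -0.65 (SE 0.755), 0.08 (SE 0.259) and -0.24 (SE 0.427), with adjusted p of at least 0.804, and each changed direction without replicate 2 (0.34, -0.19 and 0.35). IGFBP2 at 5 mM in that replicate was 717 CPM and at 50 mM 96.4 CPM, whereas it was 41.0 and 61.5 CPM in replicate 1.

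In stromal cells IGFBP2 was higher at 50 mM in all 3 pairs by a narrow range (0.29, 0.42 and 0.41 on the log2 scale of CPM), with a fitted value of 0.31 (SE 0.0943, adjusted p = 0.696). IGFBP3 was 2.04-fold higher (1.03, SE 0.435, adjusted p = 0.696), also in 3 of 3 pairs, but from 27.0 to 139.7 CPM in replicate 3 against 20.8 to 32.2 CPM in replicate 2 and 173 to 218 CPM in replicate 1. The library with 139.7 CPM is the one with high epithelial markers, and without replicate 3 the value was 0.45. IGFBP4 and IGFBP7 were at -0.53 (SE 0.385) and -0.56 (SE 0.380), both with an adjusted p of 0.698. Without replicate 3 these were -0.02 and -0.05. Over the stromal groups the epithelial markers summed to 700, 329 and 82.7 CPM at 5 mM and 1586, 1071 and 6196 CPM at 50 mM in replicates 1, 2 and 3, and their median log2 fold change was 4.55, with 0 of 23 called. Their part in these values was not tested. IGFBP5 (0.72, SE 0.606, adjusted p = 0.716) was higher in 2 of 3 pairs and changed direction without replicate 1 (-0.03), IGFBP6 was at 0.00 (SE 0.172, adjusted p = 0.998), and IGFBP1, which passed the filter in this comparison, was at -0.41 (SE 0.532, adjusted p = 0.790).

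The glucose effects of the cell types were compared in 1 fit of the 12 libraries, which called 0% of 13851 protein-coding genes (1060 at an unadjusted p under 0.05) and none of the members. DESeq2 called 230 genes in this comparison, with no member among them. The difference, epithelial minus stromal, was 1.50 for IGFBP4 (SE 0.492, adjusted p = 0.631), 0.86 for IGFBP7 (SE 0.471, adjusted p = 0.739) and 0.83 for IGFBP5 (SE 0.890, adjusted p = 0.808). For IGFBP2 and IGFBP3 it was -0.97 (SE 0.878) and -0.96 (SE 0.525), with adjusted p of 0.790 and 0.739, for IGFBP6 -0.25 (SE 0.541, adjusted p = 0.889) and for IGFBP1 0.36 (SE 0.905, adjusted p = 0.905). Without replicate 3 the difference was 0.24 for IGFBP7 and -0.28 for IGFBP3, and without replicate 2 it was 0.05 for IGFBP5.

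**Figure D4:**
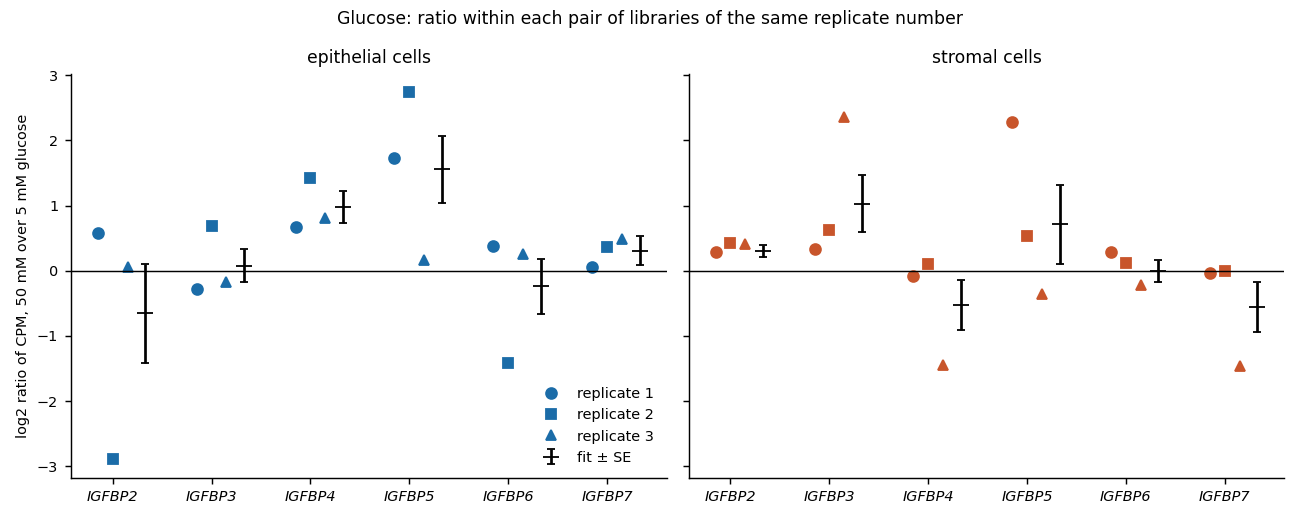
Log2 ratio of CPM between 50 and 5 mM glucose (vertical axis) within each of the 3 pairs of epithelial (blue) and stromal (orange) libraries, beside the fitted log2 fold change with its standard error (black). IGFBP4 lies above 0 in all 3 epithelial pairs, and the epithelial pair of replicate 2 and the stromal pair of replicate 3 lie apart from the others for several members.

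The third question was the response to insulin, given here as a description. Of the members, 1 was called in epithelial cells between vehicle and 10 ng/mL (IGFBP3) and 1 in stromal cells between 1 and 10 ng/mL (IGFBP5), beside 0.113% and 0.0244% of all protein-coding genes tested. No member was called between vehicle and 1 ng/mL or between 1 and 10 ng/mL in epithelial cells, or between vehicle and either dose in stromal cells, and neither was any protein-coding gene (0% in each, with 358, 532, 615 and 336 at an unadjusted p under 0.05 in edgeR's quasi-likelihood test and 0 by DESeq2). These contrasts are among those the members were chosen from, so nothing is read from the calls or their share. Both calls were lost without the replicate block and in 1 fit of all 18 libraries, that of IGFBP3 also by DESeq2 and without replicate 3, and that of IGFBP5 without replicate 2.

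IGFBP3 in epithelial cells had 382, 1122 and 484 CPM with vehicle, 393, 1087 and 565 CPM at 1 ng/mL and 418, 1222 and 705 CPM at 10 ng/mL insulin in replicates 1, 2 and 3. All 3 replicates were highest at 10 ng/mL, while the replicates differed from each other by more than the doses. The level at 10 ng/mL was 1.19-fold that of vehicle (0.26, SE 0.0532) and 1.14-fold that of 1 ng/mL (0.19, SE 0.0409), with all 3 pairs higher in both. The pair of replicate 3 was the largest, at 0.54 on the log2 scale of CPM against 0.13 and 0.12, and without that replicate the value against vehicle was 0.11. In stromal cells IGFBP3 had 49.2, 73.1 and 40.8 CPM with vehicle, 76.0, 56.8 and 38.9 CPM at 1 ng/mL and 65.4, 59.3 and 40.1 CPM at 10 ng/mL, and moved with no shared direction.

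IGFBP5 in stromal cells had 24.0, 94.2 and 9.64 CPM with vehicle, 7.87, 40.2 and 11.9 CPM at 1 ng/mL and 20.2, 71.2 and 19.1 CPM at 10 ng/mL insulin. Replicates 1 and 2 were lowest at 1 ng/mL, and replicate 3 was lowest with vehicle. The level at 10 ng/mL was 1.87-fold that of 1 ng/mL (0.91, SE 0.104) with 3 of 3 pairs higher, and that at 1 ng/mL was 1.96-fold lower than with vehicle (-0.97, SE 0.206) with 2 of 3 pairs lower. Between vehicle and 10 ng/mL the value was -0.00 (SE 0.220), with 1 of 3 pairs higher. The epithelial markers in these stromal libraries summed to 12.2, 6.87 and 8.96 CPM at 1 ng/mL and to 356, 4.91 and 37.4 CPM at 10 ng/mL in replicates 1, 2 and 3. Their median log2 fold change was 3.04 over the 5 tested, of which KRT19 was called. Their part in the level of IGFBP5 was not tested. In epithelial cells IGFBP5 had 51.4, 34.5 and 59.6 CPM with vehicle and 47.4, 40.9 and 53.6 CPM at 10 ng/mL (-0.04, SE 0.0686).

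IGFBP6 in stromal cells had 233, 310 and 277 CPM with vehicle, 248, 273 and 300.3 CPM at 1 ng/mL and 258, 330.2 and 329 CPM at 10 ng/mL insulin. The highest dose was the highest level in all 3 replicates, 1.12-fold that of vehicle (0.17, SE 0.0520) and 1.10-fold that of 1 ng/mL (0.14, SE 0.0625). In epithelial cells IGFBP6 went the other way, with 188, 287 and 221 CPM with vehicle, 176, 289 and 209 CPM at 1 ng/mL and 165, 269 and 206 CPM at 10 ng/mL. All 3 epithelial replicates were lowest at 10 ng/mL (-0.14, SE 0.0421 against vehicle). The difference between the cell types was not tested.

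In epithelial cells IGFBP2 and IGFBP7 were lower at 10 ng/mL than with vehicle in 3 of 3 pairs (-0.13, SE 0.0429, and -0.16, SE 0.0801), and IGFBP4 was at -0.07 (SE 0.0860). The 20 stromal markers tested there had a median log2 fold change of -0.12, with 0 called. Their part in the values of IGFBP4 and IGFBP7 was not tested. Epithelial IGFBP7 was also lower at 10 than at 1 ng/mL in 3 of 3 pairs (-0.16, SE 0.0784), and stromal IGFBP2 was higher in 3 of 3 (0.16, SE 0.0667). In stromal cells IGFBP2, IGFBP4 and IGFBP7 were at 0.02 (SE 0.0637), 0.03 (SE 0.0602) and 0.05 (SE 0.0550) between vehicle and 10 ng/mL. IGFBP1 passed the filter in none of the 6 insulin comparisons, and its stromal libraries at 1 ng/mL insulin all held 0 reads.

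**Figure D5:**
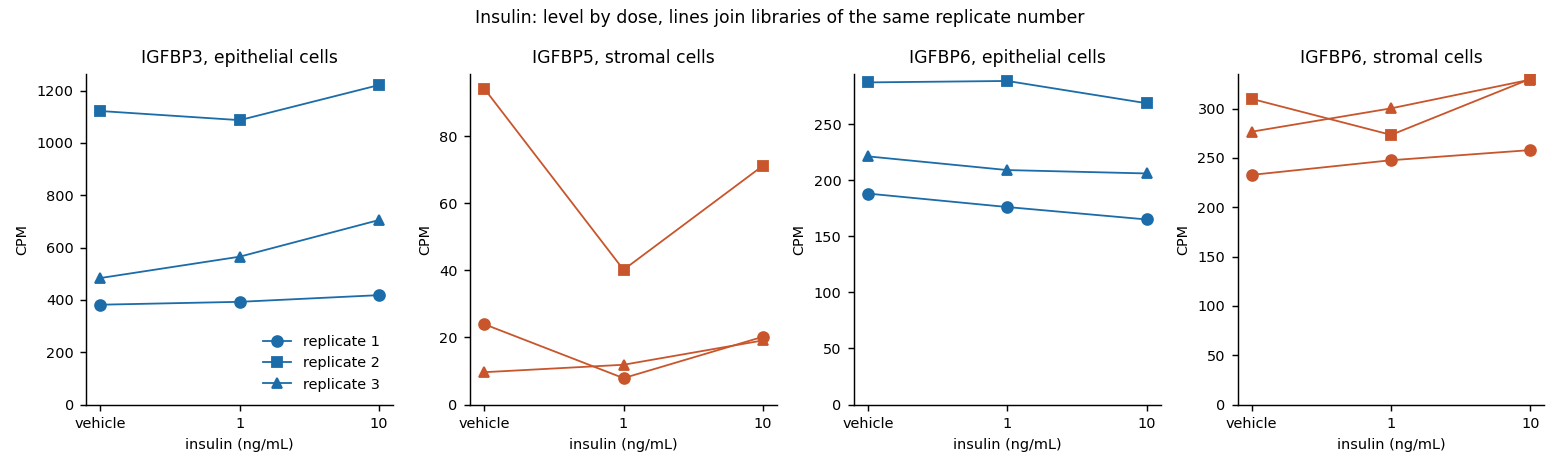
Level in CPM (vertical axis, from 0) of IGFBP3 in epithelial, IGFBP5 in stromal and IGFBP6 in both cell types by insulin dose (horizontal axis), with lines joining the libraries of 1 replicate number. IGFBP3 is highest at 10 ng/mL in all 3 replicates, and IGFBP5 is lowest at 1 ng/mL in replicates 1 and 2.

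For most members the replicate number, rather than the dose, held the variance within a cell type and experiment. Over the 9 insulin libraries of a cell type it took 98.1% of the variance of IGFBP4, 98.1% of IGFBP7, 95.8% of IGFBP6, 95.4% of IGFBP3, 85.5% of IGFBP5 and 48.1% of IGFBP2 in epithelial cells, where the median over 12447 protein-coding genes was 73.4%. In stromal cells it took 99.1% of IGFBP4, 96.7% of IGFBP2, 78.2% of IGFBP5, 74.8% of IGFBP3, 70.4% of IGFBP7 and 68.6% of IGFBP6, beside a median of 61.8% over 12149 genes. IGFBP2 in epithelial cells and IGFBP6 in stromal cells had the largest shares between insulin doses, 26.2% and 19.6%, beside medians of 5.75% and 8.76%. In the glucose experiment the exceptions were IGFBP4 in both cell types, with 13.5% and 6.95% between replicates, and IGFBP7 in stromal cells, with 31.0%. The glucose concentration took 77.8% of IGFBP4 in epithelial cells. In stromal cells it took 29.8% of IGFBP4 and 24.55% of IGFBP7, with 63.3% and 44.4% left to neither replicate nor dose.

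The 10 group means were put in order for each member, across separate experiments and so as values side by side. For IGFBP7 the 5 stromal groups (460 to 601 CPM) stood above the 5 epithelial groups (27.6 to 63.4 CPM), and only the step between the cell types separated neighbours in that order. The order of IGFBP3 had the same single step between epithelial (412 to 782 CPM) and stromal groups (54.4 to 129.98 CPM). For IGFBP4 neighbours were apart at 3 steps: between stromal cells of the glucose (441 and 618 CPM) and insulin experiments (108 to 119 CPM), between epithelial cells at 50 and 5 mM glucose (90.9 ± 29.7 and 44.8 ± 2.68 CPM, SD, n = 3), and between these and the epithelial insulin groups (23.7 to 25.6 CPM). For IGFBP1, IGFBP2, IGFBP5 and IGFBP6 no neighbouring groups were apart. At the 5 mM glucose common to both experiments, the stromal level of IGFBP4 was 618 ± 203 CPM (SD, n = 3) in the glucose experiment and 115 ± 76.2 CPM (SD, n = 3) with the insulin vehicle, which was not tested because the experiments were separate and their counts stand in separate tables.

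The genes most like each member were sought over the 15 libraries of a cell type, by Pearson's r of log2(CPM + 1) after the mean of each experiment was subtracted. These libraries share replicates, so r is a description. Some values can also rest largely on 1 library, and r without it was not computed. Stromal IGFBP7 had 232 CPM in replicate 3 at 50 mM glucose and at least 456 CPM in the other stromal libraries. In the epithelial library of replicate 2 at 5 mM, IGFBP6 had 908 CPM and IGFBP2 717 CPM. The other epithelial libraries held at most 341 and 212 CPM. In epithelial cells the likest genes were MADD for IGFBP2 (r = 0.986), DOCK8 for IGFBP3 (0.950), DPYSL3 for IGFBP4 (0.981), AK4 for IGFBP5 (0.933), PCYT2 for IGFBP6 (0.971) and CTSH for IGFBP7 (0.949), among 8647 genes. In stromal cells, among 8366 genes, they were UPK1B for IGFBP2 (0.958), ATP6V1E1 for IGFBP3 (0.925), VEGFB for IGFBP4 (0.958), ASNSD1 for IGFBP5 (0.876), GORASP2 for IGFBP6 (0.924) and BACE1 for IGFBP7 (0.960). Among the members themselves the highest values were 0.831 between IGFBP2 and IGFBP5, neighbours in the genome, in stromal cells, and 0.804 between IGFBP4 and IGFBP7 in epithelial cells. IGFBP2 and IGFBP5 had r = 0.323 in epithelial cells.

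Of the IGF and insulin ligands and receptors, the ligand IGF2 is given by its levels in the cell types. No receptor was called between the cell types in the glucose experiment, and IGF2R was called in no comparison. IGF2 was called lower in epithelial cells in all 5 comparisons. It passed the filter there only through its stromal level, so nothing is read from the calls or their size. Its epithelial libraries held at most 2.95 CPM and its stromal libraries at least 3.21 CPM. Its stromal group means were 12.5 and 43.1 CPM in the glucose experiment and 105 to 118 CPM in the insulin experiment, and its epithelial means were 0.146 to 1.24 CPM. IGF1 was near the limit of detection, with group means of 0.251 to 1.19 CPM in stromal cells and at most 0.104 CPM in epithelial cells. It was called lower in epithelial cells at 5 mM glucose, where its highest epithelial level was 0.0665 CPM, that of 1 read. IGF1 passed the filter there only through its stromal level, so nothing is read from the call or its size. The receptor genes were present in all groups, with IGF1R at 173 to 311 CPM, IGF2R at 178 to 419 CPM and INSR at 24.1 to 54.4 CPM. INSR was higher in epithelial cells in the 3 insulin comparisons, by 0.60 with vehicle (SE 0.113, adjusted p = 0.0108), and IGF1R was lower there with vehicle (-0.36, SE 0.101, adjusted p = 0.0347). Of the 9 ligand, receptor and adaptor genes 8 were in the tables, without INS, and none was called in a glucose or insulin comparison.

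Of the 14 binding partners and proteases, 12 were tested in each cell type comparison, and MMP2 and ADAM12 were called lower in epithelial cells in all 5. ADAM12, a protease that cuts IGFBP3 and IGFBP5, was at -4.47 (SE 0.483, adjusted p = 0.00543) at 5 mM glucose and -4.58 (SE 0.739, adjusted p = 0.00695) with vehicle. PAPPA, the protease of IGFBP4, was lower at 4 of the 5 conditions, among them 50 mM glucose (-2.10, SE 0.520, adjusted p = 0.0496). MMP7 was higher in epithelial cells at 4 of the 5, with 6.04 (SE 0.758, adjusted p = 0.00638) at 5 mM glucose, and STC1, an inhibitor of PAPPA, was higher in the 3 insulin comparisons (6.21, SE 0.312, adjusted p = 0.000899 with vehicle). At 5 mM glucose 1 was called higher in epithelial cells and 5 lower, with a median log2 fold change of -0.42 beside 0.00 over all genes tested, and with vehicle 6 higher and 4 lower, with -0.25 beside -0.00. The shares of all protein-coding genes called higher and lower were 10.8% and 10.7% at 5 mM glucose and 28.2% and 27.8% with vehicle. None of the partners and proteases was called in a glucose or insulin comparison.

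Of 12 other genes found whose proteins carry an IGF binding protein domain, 8 were tested in each cell type comparison. HTRA3, CCN2, CCN3, CCN4 and CCN5 were called lower in epithelial cells in all 5 comparisons, and ESM1 was higher in 4. Of all protein-coding genes tested, 10.7% were called lower in epithelial cells at 5 mM glucose and 27.8% with vehicle, and 10.8% and 28.2% higher. HTRA3, a secreted serine protease, was at -6.03 (SE 0.565, adjusted p = 0.00543) at 5 mM glucose, and CCN5 and CCN3, secreted matricellular proteins, were at -4.63 (SE 0.649, adjusted p = 0.00777) and -3.77 (SE 0.741, adjusted p = 0.0184). The median over the 8 was -3.10 at 5 mM glucose and -1.94 with vehicle, and none was called in a glucose or insulin comparison. Over the 6 members tested the calls went both ways at 5 mM glucose, with IGFBP3 higher and IGFBP4, IGFBP5 and IGFBP7 lower in epithelial cells.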

How the data were processed

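The authors trimmed single-end reads of 75 bp from stranded libraries with Cutadapt and the FASTX-Toolkit, used Rsubread for alignment to the Ensembl release 96 bovine genome, kept unique alignments and counted them per gene with featureCounts. Tool versions, the strand setting and the assembly name are not given in the sources used here. The deposited values are raw counts, 1 table for each experiment. The deposited DESeq2 tables gave the gene names and types only, and their fold changes and p-values were not used.

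Counts were divided by the library total to give CPM. For tests, edgeR 4.0.16 with R 4.3.3 was used (TMM, filterByExpr, quasi-likelihood F test) on the 6 libraries of each comparison, with Benjamini-Hochberg adjustment over all genes tested. A call took an adjusted p under 0.05 and a log2 fold change beyond 0.1, counted on protein-coding genes. Standard errors are the absolute log2 fold change divided by the square root of the F statistic of the same fit. The 95% intervals use these with a normal quantile, so they are approximate and narrower than the F test implies. The fits were also run on simulated counts in which both groups shared 1 replicate effect. That pairing was built in, so the simulation cannot show whether the block suits the comparisons of cell types. DESeq2 1.42.0, RLE size factors, no filter, no replicate block, 1 fit of all libraries of an experiment, and leaving out each replicate were the alternatives. In the fit of all libraries the replicate number was taken out within each cell type. A difference between cell types was then weighed only against the spread left over the doses. With vehicle that fit called 77.2% of protein-coding genes between the cell types, against 55.9% in the main fit.

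The study's methods state a paired sample design, so the replicate number was a block. Deviations from the group means of libraries with one number had r = 0.193 to 0.836 between treatments of a cell type, and 0.0363 to 0.515 between cell types, where 4 of 15 pairs were under 0.1. No 2 libraries of a group agreed within sampling noise (chi-square per gene at least 17.3). Ratios within pairs are log2 of CPM plus 0.1.

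The members and gene lists were chosen with earlier results of these data known. All members are named in each comparison. Of the lists, at most 3 called genes with the largest log2 fold change are named per comparison of glucose concentrations or cell types, with IGF1, IGF2, IGF1R, IGF2R and INSR by level. CCN2 and ESM1, and calls in other comparisons of genes so named, were added after their values were seen. Genome positions were not used, and neighbours are those of the RefSeq annotation. With the replicate block, p-values weigh a difference against the spread left among these libraries after the replicate number is taken out.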

Additional observations from a re-analysis of the deposited data

Results flagged for a closer look

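Effects with all 3 pairs in one direction in epithelial cells and all 3 in the other in stromal cells were looked for. Over the 7 members 3 were found. Fitted values alone had opposite signs for other members too, such as IGFBP4 for glucose (0.98 and -0.53), with 1 of 3 stromal pairs higher. For IGFBP7, all 3 epithelial pairs were higher and all 3 stromal pairs lower at 50 mM than at 5 mM glucose, with log2 fold changes of 0.31 and -0.56, which differ by 0.87. The fit of all 12 libraries gave 0.86 for this difference (edgeR's quasi-likelihood test, adjusted p = 0.739), so it did not pass. The stromal pairs of replicates 1 and 2 were at -0.04 and -0.01, and that of replicate 3, whose library at 50 mM held high epithelial markers, at -1.46. For IGFBP6, all 3 epithelial pairs were lower and all 3 stromal pairs higher at 10 ng/mL insulin than with vehicle (-0.14 and 0.17, a difference of -0.31) and than at 1 ng/mL (-0.08 and 0.14, a difference of -0.21). The difference was not tested for IGFBP6, and both comparisons share the libraries at 10 ng/mL.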

How the results depend on the processing

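Over all alternatives of the glucose and cell type comparisons, 346 fold changes of members kept their direction and their side of the threshold, 15 fell short of it, 16 passed it and 14 changed direction. In the insulin contrasts all 288 moved by less than 1 SD of the pairs, but 15 of the 36 fold changes changed sign under at least 1 alternative, such as IGFBP5 in stromal cells between vehicle and 10 ng/mL (-0.33 to 0.25). Of the group means, 278 moved by less than 1 SD and 2 by more. Leaving out 1 replicate cannot move a group mean by 1 SD, so the label of those rows was fixed in advance. The same bound holds for the mean of the pairs in an insulin contrast. Neither tally can therefore show whether values hold when a replicate is left out. Of the counts of members called, 93 held and 18 moved. Without the replicate block 2 rather than 4 members were called between the cell types at 5 mM glucose, 0 rather than 1 in epithelial cells between vehicle and 10 ng/mL and 0 rather than 1 in stromal cells between 1 and 10 ng/mL insulin. The 1 fit of all libraries of an experiment gave 0 for both insulin contrasts, and DESeq2 gave 0 for the epithelial one. With no filter, 1 member rather than 0 was called in epithelial cells between 1 and 10 ng/mL and in stromal cells between vehicle and 1 ng/mL. IGFBP6 in stromal cells between glucose concentrations was -0.0409 without the block (0.00 with it), and IGFBP2 between cell types at 50 mM was 0.0846 in the fit of all libraries (-0.16 on its own 6).

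Leaving out each replicate in turn, 0 to 1 members were called for glucose in epithelial cells, in epithelial cells between vehicle or 1 ng/mL and 10 ng/mL insulin and in stromal cells between vehicle and 1 ng/mL, and 0 to 2 in stromal cells between 1 and 10 ng/mL. Between cell types these counts were 0 to 3 at 50 mM glucose, 2 to 5 with vehicle and 2 to 5 at 10 ng/mL insulin. In the tested comparisons, fold changes that changed direction ran, for glucose in epithelial cells, from -1.45 to 0.34 (IGFBP2), -0.19 to 0.22 (IGFBP3) and -0.62 to 0.35 (IGFBP6). In stromal cells they ran from -0.0286 to 1.33 (IGFBP5) and -0.16 to 0.18 (IGFBP6). Between cell types they ran from -0.15 to 1.79 (IGFBP2) and -0.71 to 0.74 (IGFBP6) at 5 mM, from -0.42 to 0.0651 (IGFBP2) and -0.36 to 0.0218 (IGFBP6) at 50 mM, and from -0.19 to 1.76 (IGFBP5) with vehicle. For the difference of glucose effects they ran from -1.75 to 0.0343 (IGFBP2) and -0.73 to 0.34 (IGFBP6).

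Counts of called protein-coding genes ranged over the alternatives from 0 to 218 (0 as reported) for glucose in epithelial cells, 0 to 190 (0) in stromal cells and 0 to 303 (0) for the difference. In epithelial cells they were 0 to 27 (0) between vehicle and 1 ng/mL, 0 to 68 (14) between vehicle and 10 ng/mL and 0 to 19 (0) between 1 and 10 ng/mL. In stromal cells these were 0 to 132 (0), 0 to 75 (0) and 0 to 138 (3). Between cell types they were 2190 to 5752 (2856) at 5 mM and 0 to 3785 (2328) at 50 mM glucose, and 5069 to 10454 (7200), 6179 to 10564 (7632) and 4815 to 10426 (7030) with vehicle, 1 and 10 ng/mL insulin. The cause of these changes was not tested. With 3 replicates, and reads of IGFBP1 at or near the limit of a count of 0 in most libraries, no difference in IGFBP1 was detectable at this depth.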
